A study of Mus musculus with 2 samples.

Results

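Lipases release fatty acids from fats. The 10 genes described here are the pancreatic-type lipases Pnlip, Pnliprp1 and Pnliprp2 with the colipase gene Clps and the carboxyl ester lipase gene Cel, the vessel-wall and hepatic lipases Lpl, Lipg and Lipc, and the intracellular lipases Lipe and Pnpla2. They were taken by symbol, and all 10 were found among the 35529 genes of the table. The set was selected on its RPKM values in the same 2 samples compared here, so these values are a description. RNA came from colon adenomas of C57BL/6 wild-type mice treated with AOM, the carcinogen azoxymethane, plus DSS, dextran sodium sulfate, an irritant of the gut lining, and from normal colon of C57BL/6 wild-type mice that got neither agent. Total RNA of 6 individuals was pooled for each group and each pool gave 1 library, called the adenoma pool and the control pool here. Ages and doses are not in the labels, and the adenoma sample differs from the control in lesion as well as in treatment. No difference below has a replicate check.

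Pancreatic lipase and its relatives are secreted enzymes that digest dietary triglyceride in the gut lumen, where bile salts would wash them off the fat droplet without colipase. Lipoprotein lipase, endothelial lipase and hepatic lipase belong to the same gene family but act on circulating lipoproteins from the surface of vessel walls and liver cells. Hormone-sensitive lipase and adipose triglyceride lipase, the products of Lipe and Pnpla2, break down stored fat inside cells. The textbook source of the digestive group is the acinar cell of the pancreas, and colon is not a main site of fat digestion.

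Pnlip, Pnliprp1 and Pnliprp2 lie side by side on the plus strand of chromosome 19 in the GENCODE M21 annotation of GRCm38, with 47.1 kb between Pnlip and Pnliprp1 and 15.5 kb between Pnliprp1 and Pnliprp2. Pnlip (ENSMUSG00000046008.8) spans 58652498 to 58681788, Pnliprp1 (ENSMUSG00000042179.6) spans 58728887 to 58744169 and Pnliprp2 (ENSMUSG00000025091.4) spans 58759719 to 58777534. The other genes lie apart, Clps on chromosome 17, Cel on 2, Lpl on 8, Lipg on 18, Lipc on 9, and Lipe and Pnpla2 both on 7. The promoters of the 3 genes are shown because the genes are neighbours and relatives that stood at very different levels. Each is 300 bases of RefSeq sequence on GRCm38.p6, plus strand, from 250 bases before the RefSeq start site to 50 after it. Capitals mark CANNTG in Pnliprp1 and Pnliprp2 and TATAAA in Pnlip, whose RefSeq start lies inside the longer GENCODE span.
Pnliprp1, chr19:58728637-58728936: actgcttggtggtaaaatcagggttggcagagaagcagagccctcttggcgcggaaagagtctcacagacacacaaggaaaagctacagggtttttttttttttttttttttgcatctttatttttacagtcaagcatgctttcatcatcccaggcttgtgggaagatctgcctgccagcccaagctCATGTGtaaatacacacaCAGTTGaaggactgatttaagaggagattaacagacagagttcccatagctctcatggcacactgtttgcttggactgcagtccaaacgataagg
Pnliprp2, chr19:58759473-58759772: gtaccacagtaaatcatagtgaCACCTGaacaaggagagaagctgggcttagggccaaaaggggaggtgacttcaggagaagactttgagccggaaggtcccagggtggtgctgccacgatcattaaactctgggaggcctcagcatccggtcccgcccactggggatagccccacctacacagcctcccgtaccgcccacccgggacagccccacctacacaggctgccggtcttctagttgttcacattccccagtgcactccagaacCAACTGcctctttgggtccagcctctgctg
Pnlip, chr19:58670115-58670414: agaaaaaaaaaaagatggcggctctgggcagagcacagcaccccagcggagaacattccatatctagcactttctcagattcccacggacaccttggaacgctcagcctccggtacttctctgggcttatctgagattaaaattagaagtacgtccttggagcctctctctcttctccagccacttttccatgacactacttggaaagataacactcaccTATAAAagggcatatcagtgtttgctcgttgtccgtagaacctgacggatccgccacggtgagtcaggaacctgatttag

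Of the 5 motifs searched on both strands, the Pnlip promoter held TATAAA alone, starting 30 bases before the start site, a motif in 13.6% of 32851 RefSeq promoters. Neither Pnliprp1 nor Pnliprp2 held TATAAA in this window. Each of them held 2 matches to CANNTG, the E-box pattern and a motif present in 72.3% of promoters. CTTTGAT, the core of TCF/LEF sites, was in none of the 3 windows and in 3.73% of all promoters. TTTCCC and the consensus PPAR response element, searched as a direct repeat with 1 spacer base, were also in none of the 3, and in 25.2% and 0.0396% of all promoters. The GC content was 44.3% for Pnliprp1, 58.7% for Pnliprp2 and 48.3% for Pnlip, against a median of 52.7% over all promoters. These are matches of letters, and no match says only that those letters are not in these windows.

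Values are RPKM, which divide the reads of a gene by its length and by the depth of the library. The depths recovered from them were 33174626 reads for the adenoma pool and 29548883 for the control pool. The log2 value of a gene is log2((adenoma RPKM + 1)/(control RPKM + 1)). This scale understates differences of low genes. A gene is called past 2-fold when this value is 1 or more, or -1 or less. Folds are ratios of RPKM without the added 1, and the intervals in brackets are 95% exact binomial intervals for counting error only, from approximate reads. The filter of 1 RPKM in one pool or the other left 16517 genes, and in the adenoma pool 2316 of them (14.0%) were 2-fold higher or more and 1809 (11.0%) were 2-fold lower or more. With the RPKM of each pool rescaled to equal sums, which shifts log2 values by -0.40 at high RPKM, 1208 were higher and 3158 lower. Long transcripts had lower log2 values as a whole, with a Spearman's rho of -0.50 across 12695 mRNA genes, and after subtracting that trend 880 genes were higher and 1738 lower.

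Of the 10 lipase genes, 8 passed the filter of 1 RPKM. Among them Pnliprp1, Pnliprp2 and Lipc were at least 2-fold higher (3 of 8, against 14.0% of all genes), Lipg was at least 2-fold lower (1 of 8, against 11.0% of all genes), and 4 lay between. The members were selected on this contrast, so nothing is read from these shares. Lipc passed the filter through the adenoma pool alone, so its place in that count follows partly from the filter. Pnlip and Cel stayed under 1 RPKM in both pools. The summed RPKM of the 10 genes was 476 in the adenoma pool and 76.2 in the control pool, and Pnliprp1 with Pnliprp2 made up 85.2% of it in the adenoma pool and 2.79% in the control pool. By role, the 5 secreted pancreatic-type genes summed to 444 RPKM in the adenoma pool and 32.2 in the control pool. The 3 vessel-wall and hepatic lipases summed to 5.80 RPKM in the adenoma pool and 11.8 in the control pool, and the 2 intracellular lipases to 26.6 RPKM in the adenoma pool and 32.2 in the control pool.

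**Figure D1:**
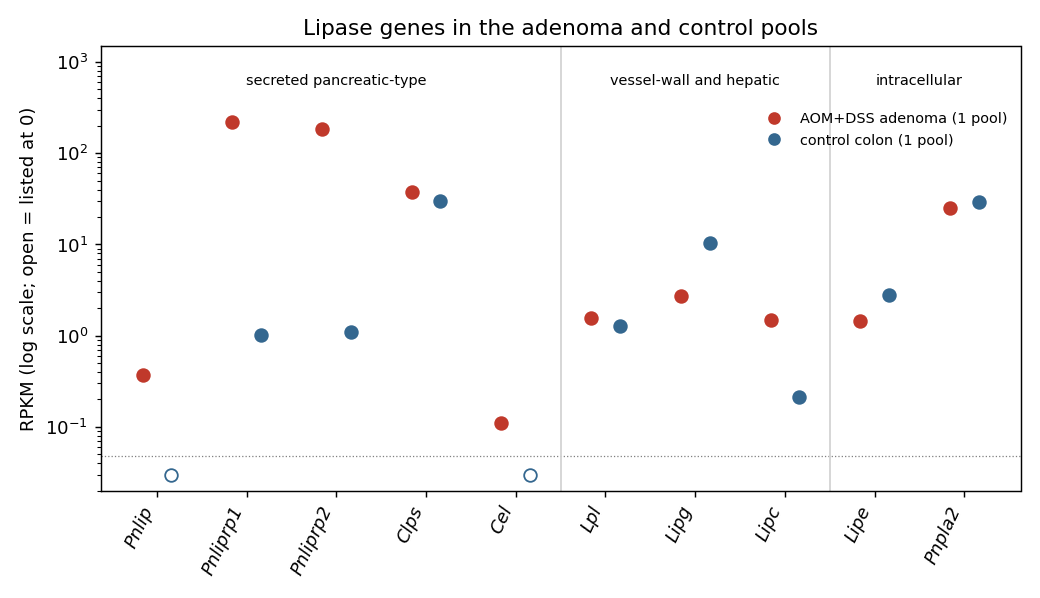
RPKM of the 10 lipase genes on a log scale, with the adenoma pool in red on the left and the control pool in blue on the right of each gene; open circles are values listed at 0, and each point is 1 pooled library. Pnliprp1 and Pnliprp2 are near 200 only in the adenoma pool (222 and 184 RPKM), while Clps and Pnpla2 lie close together in both pools.

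Pnliprp1, pancreatic lipase related protein 1, a secreted relative of pancreatic lipase with little known activity on triglyceride, stood at 222 RPKM in the adenoma pool and 1.02 RPKM in the control pool. That is about 11918 reads against 49 on its transcript of 1619 bases. The log2 value of 6.78 had rank 6 from the top among the 16517 genes. Pnliprp2, pancreatic lipase related protein 2, which hydrolyses galactolipids and phospholipids as well as triglyceride, stood at 184 RPKM in the adenoma pool and 1.10 RPKM in the control pool. Its log2 value of 6.46 had rank 10. The ratio of Pnliprp1 to Pnliprp2 was 1.21 in the adenoma pool and 0.931 in the control pool, so the neighbours stood at near-equal levels in each. In the adenoma pool 365 mRNA genes had a higher RPKM than Pnliprp1, and in the control pool 12272 did.

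Pnlip, the main digestive lipase of the adult pancreas, stood at 0.375 RPKM in the adenoma pool and was listed at 0 in the control pool. Its adenoma value is about 18.5 reads on a transcript of 1487 bases. A floor of 3 reads in the control library would give 0.0683 RPKM. The adenoma value is 5.49 times that floor, and 4.17 times with the pools at equal sums. The log2 value of 0.46 becomes 2.25 with 0.1 added in place of 1. It becomes -0.09 after the length trend is subtracted, so no direction is given for Pnlip. Pnliprp1 was 592 times as abundant as Pnlip in the adenoma pool. Clps, whose product anchors pancreatic lipase to fat droplets in the presence of bile salts, was the highest of the 10 genes in the control pool. It stood at 37.5 RPKM in the adenoma pool and 30.1 RPKM in the control pool, 1.25-fold higher (1.12 to 1.40). Its log2 value of 0.31 becomes -0.08 with the pools at equal sums and -0.65 after the length trend is subtracted, its transcript being 611 bases long, so no direction can be given for Clps. Pnliprp1 was 5.91 times the level of Clps in the adenoma pool, while Clps was 29.4 times the level of Pnliprp1 in the control pool.

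Cel, a lipase of broad specificity that bile salts activate, stood at 0.111 RPKM in the adenoma pool, about 7.59 reads, and was listed at 0 in the control pool. Its log2 value of 0.15 becomes -0.13 after length adjustment, and with so few reads no direction is given for Cel. The secreted group therefore held both extremes of the 10 genes in the adenoma pool, with Pnliprp1 first and Cel last.

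**Figure D2:**
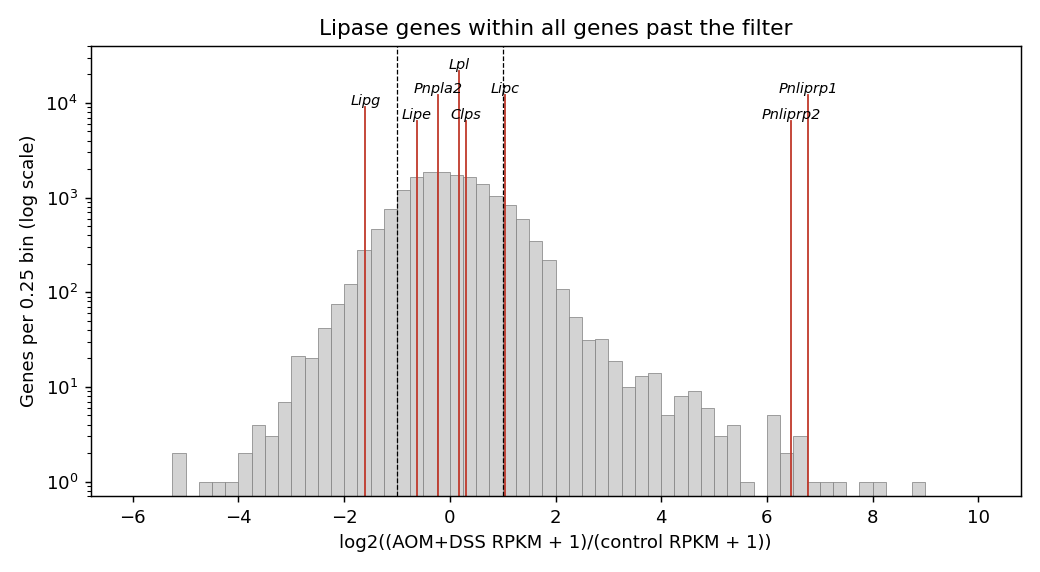
Number of genes (log scale) by log2 value for the 16517 genes past the filter, in bins of 0.25, with red lines at the 8 lipase genes past the filter and dashed lines at 2-fold. Pnliprp1 (6.78) and Pnliprp2 (6.46) lie in the thin upper tail, Lipg (-1.60) on the lower side, and Lipc (1.04) at the 2-fold line.

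The coding sequences of Pnliprp1 and Pnliprp2 were 66.8% identical over 1399 aligned bases. Pnlip was 69.1% identical to Pnliprp1 and 70.2% to Pnliprp2. The similarity of the 3 genes to Lpl, Lipg and Lipc was lower, from 59.1% to 62.7%. No stretch of 50 bases of the Pnlip, Pnliprp1, Pnliprp2, Clps, Cel, Lipg, Lipc, Lipe or Pnpla2 transcript occurred in a transcript of another GENCODE gene. In the Lpl transcript 162 of 4066 such stretches (3.98%) did. The read length is not given in the sources used here. How the authors assigned reads that map to several genes is not given either. Antisense transcripts are annotated over Cel (Gm13381), Lipe (4732471J01Rik) and Lipc (Gm3436 and Gm32017), and since the sources used here do not say whether strand was used, reads of such pairs cannot be told apart.

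The genes around the cluster did not share the levels of Pnliprp1 and Pnliprp2. Within 500 kb on either side, 12 other genes had a row in the table, 5 of them listed at 0 in both pools. Only Hspa12a and Shtn1 passed the filter, and neither was past 2-fold. Hspa12a, an HSP70-family gene, stood at 0.736 RPKM in the adenoma pool and 2.14 RPKM in the control pool. Shtn1, listed under its older name 4930506M07Rik and encoding a protein of neuronal polarity, stood at 8.01 RPKM in the adenoma pool and 10.5 RPKM in the control pool. The nearest genes with a row, the pseudogene 1810018F18Rik between Pnlip and Pnliprp1 and 1700019N19Rik beyond Pnliprp2, were at 0 and 0.163 RPKM in the adenoma pool and at 0 in the control pool.

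**Figure D3:**
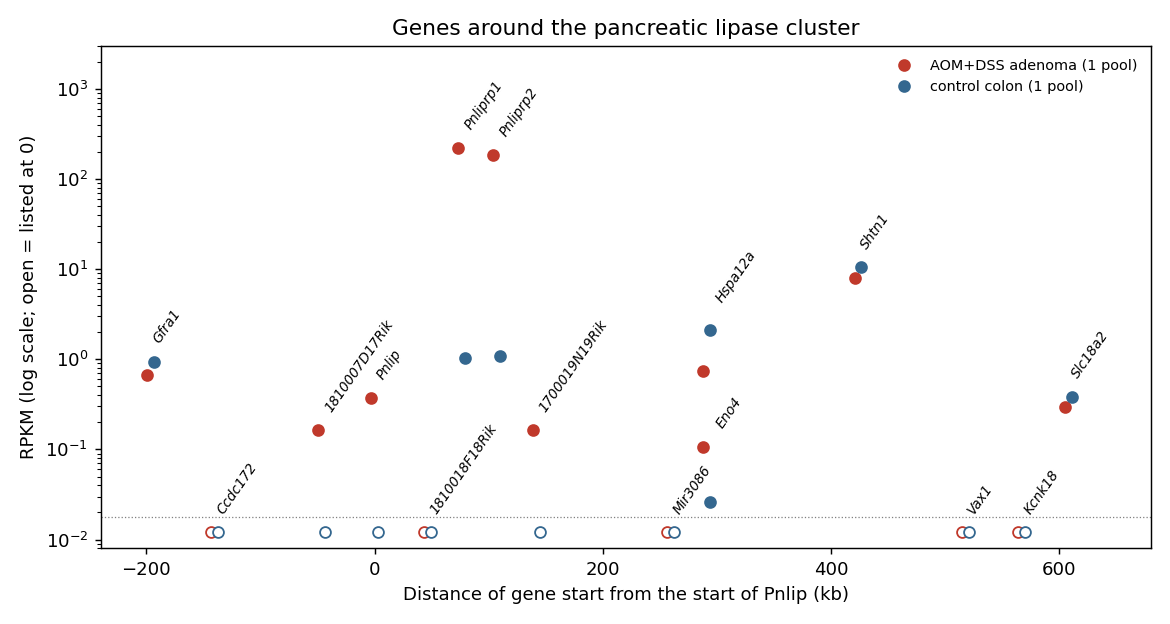
RPKM (log scale) of the 3 cluster genes and the 12 other genes within 500 kb, by the distance of each gene start from the start of Pnlip in kb, with the adenoma pool in red and the control pool in blue, set slightly apart, and open circles for values listed at 0. Pnliprp1 and Pnliprp2 in the adenoma pool (222 and 184 RPKM) stand above every other point, the next being Shtn1 at 10.5 in the control pool.

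Markers of pancreatic acinar cells were read beside the secreted lipases. Of 27 markers, 12 were listed at 0 in both pools, namely the trypsin genes Prss1, Prss3, Try4, Try5 and Try10, carboxypeptidase Cpa1, the elastase genes Cela3a and Cela3b, chymotrypsinogen Ctrb1, the amylase genes Amy2a5 and Amy2b, and the acinar transcription factor Ptf1a. Of the 7 markers past the filter 1 was at least 2-fold higher (against 14.0% of all genes) and 3 were at least 2-fold lower (against 11.0%). The higher one was the secreted ribonuclease Rnase1, at 19.7 RPKM in the adenoma pool and 0.349 RPKM in the control pool. The lower ones were Nr5a2, a nuclear receptor also expressed in intestinal crypts, at 0.794 RPKM in the adenoma pool and 8.79 in the control pool, the granule protein gene Sycn, at 181 RPKM in the adenoma pool and 517 in the control pool, and the kallikrein Klk1, at 437 RPKM in the adenoma pool and 1169 in the control pool. Rnase1 passed the filter through the adenoma pool alone and Nr5a2 through the control pool alone, so these counts follow partly from the filter. Cela1 was at 291 RPKM in the adenoma pool and 321 in the control pool. The 27 markers summed to 934 RPKM in the adenoma pool and 2021 in the control pool. Without Cela1, Sycn and Klk1, a subset chosen after the values were seen, the sums were 24.3 RPKM in the adenoma pool and 13.7 in the control pool.

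**Figure D4:**
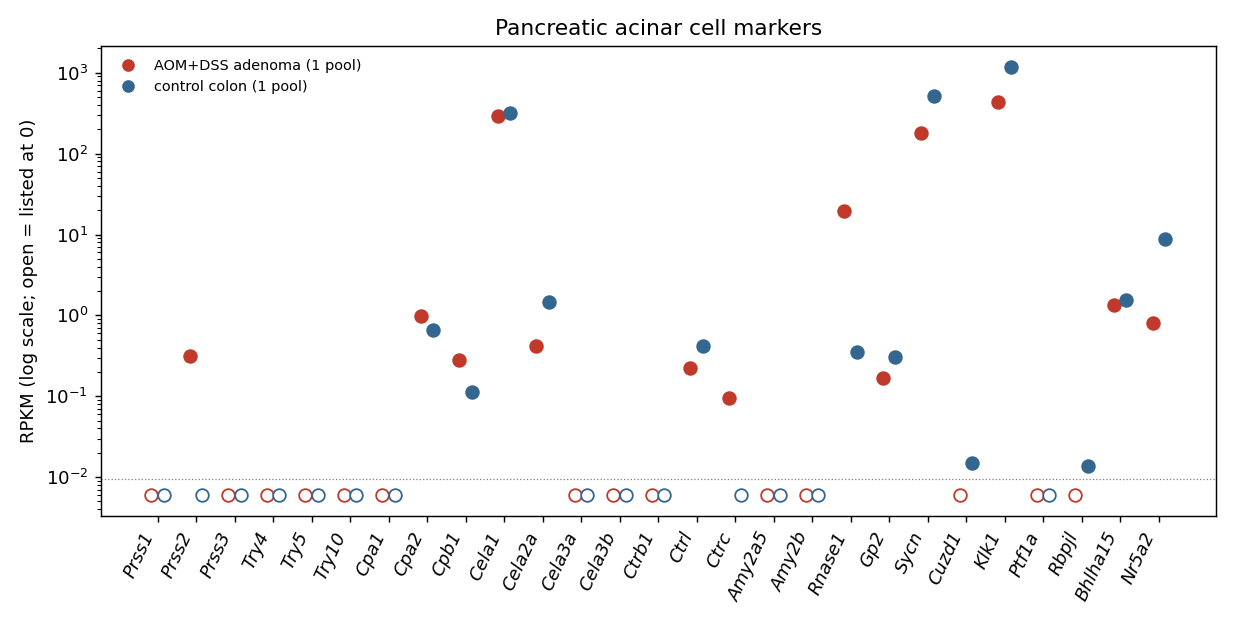
RPKM (log scale) of 27 pancreatic acinar cell markers, with the adenoma pool in red on the left and the control pool in blue on the right of each gene, and open circles for values listed at 0. Of the 27 markers 12 are at 0 in both pools, while Cela1, Sycn and Klk1 are above 100 RPKM in both.

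Paneth cell markers were higher beside Pnliprp1 and Pnliprp2. Of 15 markers 14 passed the filter. Past 2-fold were 13 on the higher side (against 14.0% of all genes) and 1 on the lower (against 11.0%). Of these 13, 9 passed the filter through the adenoma pool alone, namely 8 alpha-defensin genes listed at 0 in the control pool and the protease gene Mmp7, at 328 RPKM in the adenoma pool and 0.116 in the control pool, so the count follows partly from the filter. The alpha-defensin genes are near-identical copies, and the split of reads among them is uncertain. All 15 Paneth cell markers together summed to 1633 RPKM in the adenoma pool and 255 in the control pool, and none was at 0 in both. The 1 lower marker was the ribonuclease Ang4, at 59.9 RPKM in the adenoma pool and 174 in the control pool. Gastric markers stayed low, with a sum of 5.36 RPKM in the adenoma pool and 0.221 in the control pool. The pepsinogen gene Pgc, Gkn2, Atp4b and Gast were at 0 in both, while Tff1 was at 2.02 and Gkn3 at 1.84 RPKM in the adenoma pool, against 0.0708 and 0.128 RPKM in the control pool. Small-intestinal enterocyte markers summed to 61.7 RPKM in the adenoma pool and 110.5 in the control pool. Of 6 past the filter 2 were at least 2-fold lower (against 11.0% of all genes) and none higher (against 14.0%). The maltase gene Mgam was at 9.36 RPKM in the adenoma pool and 30.4 in the control pool. The retinol carrier Rbp2 was at 5.45 RPKM in the adenoma pool and 17.0 in the control pool. After length adjustment 4 of the 6 were at least 2-fold lower and none higher. Smooth muscle markers summed to 1791 RPKM in the adenoma pool and 2178 in the control pool. The myosin gene Myh11, at 61.0 RPKM in the adenoma pool and 178 in the control pool, Smtn, at 15.03 RPKM in the adenoma pool and 33.2 in the control pool, and Lmod1, at 7.14 RPKM in the adenoma pool and 17.9 in the control pool, were lower. The part of these cell types in the lipase values was not tested.

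Colon epithelium markers, which check the tissue, were all 13 present, and summed to 6111 RPKM in the adenoma pool and 10757 in the control pool. Of these, 9 were at least 2-fold lower (against 11.0% of all genes) and none higher (against 14.0%). The keratin Krt8 was the most abundant, at 2514 RPKM in the adenoma pool and 4237 in the control pool. The carbonic anhydrase gene Car4 was at 18.4 RPKM in the adenoma pool and 659 in the control pool, the chloride transporter gene Slc26a3 at 6.46 RPKM in the adenoma pool and 143 in the control pool, and the water channel gene Aqp8 at 8.64 RPKM in the adenoma pool and 134 in the control pool. In pooled tissue RNA, fewer cells of a type and less RNA per cell cannot be told apart.

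Among the lipases of lipoproteins, Lipg was the 1 gene lower past 2-fold. Lipg, endothelial lipase, acts mainly on phospholipids of high-density lipoprotein. It stood at 2.74 RPKM in the adenoma pool and 10.3 RPKM in the control pool, 3.77-fold lower (3.34 to 4.26), with a log2 value of -1.60. Lipc, hepatic lipase, went the other way at a low level, with 1.49 RPKM in the adenoma pool and 0.212 RPKM in the control pool, about 95 reads against 12, 7.05-fold higher (3.85 to 14.1). Its log2 value of 1.04 drops under the 2-fold line at equal sums (0.82), after length adjustment (0.72), with upper quartile scaling (0.99) and with 5 added in place of 1 (0.32). Lpl, lipoprotein lipase, which releases fatty acids from chylomicrons and very low-density lipoprotein, stood at 1.58 RPKM in the adenoma pool and 1.29 RPKM in the control pool. The counting interval of its ratio of 1.22 runs from 0.988 to 1.51, and the log2 value of 0.17 becomes -0.06 at equal sums. Lipg was 1.84 times the level of Lipc in the adenoma pool and 48.8 times in the control pool.

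Lipe, hormone-sensitive lipase, stood at 1.46 RPKM in the adenoma pool and 2.80 RPKM in the control pool, 1.92-fold lower (1.59 to 2.31), with a log2 value of -0.63. Pnpla2, adipose triglyceride lipase, which takes the first fatty acid from triglyceride, stood at 25.1 RPKM in the adenoma pool and 29.4 RPKM in the control pool, 1.17-fold lower (1.10 to 1.24). Pnpla2 was 17.2 times the level of Lipe in the adenoma pool and 10.5 times in the control pool. Neither gene was past 2-fold.

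The cell types that carry these lipases were read from their markers. Of 10 endothelial markers 1 was at least 2-fold higher (against 14.0% of all genes) and 1 lower (against 11.0%). The higher one was Gpihbp1. The lower one was the VEGF receptor Kdr, at 1.37 RPKM in the adenoma pool and 4.39 in the control pool. The 10 endothelial markers summed to 43.7 RPKM in the adenoma pool and 52.6 in the control pool. After length adjustment Gpihbp1 (0.60) and Kdr (-0.73) are both under the 2-fold line, and the median log2 value of the endothelial markers is -0.16 in place of -0.74. Adipocyte markers summed to 68.9 RPKM in the adenoma pool and 55.9 in the control pool, mostly Fabp4 with 58.1 RPKM in the adenoma pool and 33.9 in the control pool. The adipocyte hormone gene Adipoq was at 0.563 RPKM in the adenoma pool and 1.84 in the control pool, and the adipsin gene Cfd at 2.45 RPKM in the adenoma pool and 9.88 in the control pool. Of 6 adipocyte markers past the filter 2 were at least 2-fold lower, Cfd and Cidec, against 11.0% of all genes, and none higher. Adipoq, with a log2 value of -0.86, was within 2-fold. Adipoq and Cidec passed the filter through the control pool alone. Hepatocyte markers summed to 45.9 RPKM in the adenoma pool and 47.1 in the control pool. The fibrinogen genes Fga and Fgb were at 0 in both. Of 5 past the filter 1 was at least 2-fold higher, against 14.0% of all genes, and none lower. It was albumin, Alb, at 6.11 RPKM in the adenoma pool and 1.23 in the control pool. Within 2-fold were Ttr, Apoa2, Tat and Cps1. In the adenoma pool they were at 31.3, 3.24, 3.28 and 1.70 RPKM, and in the control pool at 34.0, 1.49, 6.39 and 3.83. Macrophage markers summed to 745 RPKM in the adenoma pool and 437 in the control pool. Of 10 past the filter 8 were inside 2-fold, 1 was higher (against 14.0% of all genes) and 1 lower (against 11.0%). The lysozyme gene Lyz2 was at 621 RPKM in the adenoma pool and 328 in the control pool, the receptor gene Trem2 at 14.2 RPKM in the adenoma pool and 2.24 in the control pool, and the scavenger receptor gene Cd163 at 0.228 RPKM in the adenoma pool and 1.59 in the control pool. The part of these cell types part in the values of Lpl, Lipg, Lipc and Lipe was not tested.

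Genes that act on lipoprotein lipase went both ways. Of 14 partners 10 passed the filter. Of these, 3 were past 2-fold on the higher side (against 14.0% of all genes) and 2 on the lower (against 11.0%). Their median log2 value was 0.36 against -0.02 over all genes. Gpihbp1, which carries lipoprotein lipase to the capillary lumen, was at 9.42 RPKM in the adenoma pool and 3.95 in the control pool. Apoe, the most abundant partner, was at 716 RPKM in the adenoma pool and 346 in the control pool. Angptl8, an inhibitor listed under its older name Gm6484, was at 2.37 RPKM in the adenoma pool and 0.587 in the control pool. Angptl8 passed the filter through the adenoma pool alone. After length adjustment the log2 values of Gpihbp1, Apoe and Angptl8 are 0.60, 0.46 and 0.15, under the 2-fold line. The remnant receptor Lrp1 was 5.01-fold lower, at 3.42 RPKM in the adenoma pool and 17.1 in the control pool. Sel1l, which helps lipoprotein lipase leave the endoplasmic reticulum, was at 5.54 RPKM in the adenoma pool and 13.8 in the control pool. Its log2 value of -1.18 is -0.68 after length adjustment. With that adjustment no partner is past 2-fold higher and 2 are past it lower, Lrp1 (-1.43) and Apoc1 (-1.58). Apoc1 was at 0.738 RPKM in the adenoma pool and 1.66 in the control pool. It passed the filter through the control pool alone. Within 2-fold were the activator Apoc2, at 7.74 RPKM in the adenoma pool and 4.77 in the control pool, the inhibitor Angptl4, at 2.57 RPKM in the adenoma pool and 1.65 in the control pool, and the maturation factor Lmf1, at 16.7 RPKM in the adenoma pool and 17.5 in the control pool.

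Genes of intracellular lipolysis and lipid droplets went both ways. Of 15 genes 11 passed the filter. Past 2-fold were 2 on the higher side (against 14.0% of all genes) and 2 on the lower (against 11.0%). The median log2 value was -0.31. Hilpda, an inhibitor of adipose triglyceride lipase, was at 23.7 RPKM in the adenoma pool and 7.83 in the control pool, 3.03-fold higher. G0s2, another inhibitor of the same enzyme, was at 6.01 RPKM in the adenoma pool and 3.05 in the control pool, and its activator Abhd5 was at 8.54 RPKM in the adenoma pool and 10.9 in the control pool, neither past 2-fold. Plin5, a droplet coat protein, was at 1.12 RPKM in the adenoma pool and 0.0170 in the control pool, and passed the filter through the adenoma pool alone. After length adjustment Hilpda (0.60) and Plin5 (0.76) are under the 2-fold line, while Cidec (-1.68) and Cideb (-1.76) are past it. The droplet proteins Cidec, at 0.248 RPKM in the adenoma pool and 1.99 in the control pool, and Cideb, at 29.8 RPKM in the adenoma pool and 63.3 in the control pool, were lower. Cidec passed the filter through the control pool alone. The most abundant droplet coat gene, Plin2, was at 54.7 RPKM in the adenoma pool and 60.0 in the control pool. Mgll, which completes the breakdown of triglyceride, was at 4.96 RPKM in the adenoma pool and 9.62 in the control pool.

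Other lipase genes, of several families, did not show values like those of Pnliprp1 and Pnliprp2. Of 18 further neutral, acid and patatin-like lipase genes 9 passed the filter, with a median log2 value of -0.43. None was at least 2-fold higher (against 14.0% of all genes) and 1 was lower (against 11.0%). The lower one was Dagla, a diacylglycerol lipase, at 0.712 RPKM in the adenoma pool and 3.88 in the control pool. Dagla passed the filter through the control pool alone. The gastric lipase gene Lipf, Lipi and Pnpla5 were at 0 in both pools. The lysosomal acid lipase gene Lipa was at 10.7 RPKM in the adenoma pool and 13.8 in the control pool, and Liph, a phosphatidic acid-selective relative of pancreatic lipase, at 9.65 RPKM in the adenoma pool and 15.6 in the control pool. Of 10 genes of dietary fat uptake and packaging past the filter none was at least 2-fold higher and 1 was lower. The shares of all genes were 14.0% and 11.0%, and the median of the 10 genes was -0.19. The lower one was the lipoprotein scaffold Apob, at 0.618 RPKM in the adenoma pool and 3.55 in the control pool. Apob passed the filter through the control pool alone. The log2 value of Apob was -1.49 and is -0.88 after length adjustment, under the line. Mogat2, which rebuilds dietary triglyceride in enterocytes, was at 1.497 RPKM in the adenoma pool and 0.325 in the control pool, with a log2 value of 0.91.

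**Figure D5:**
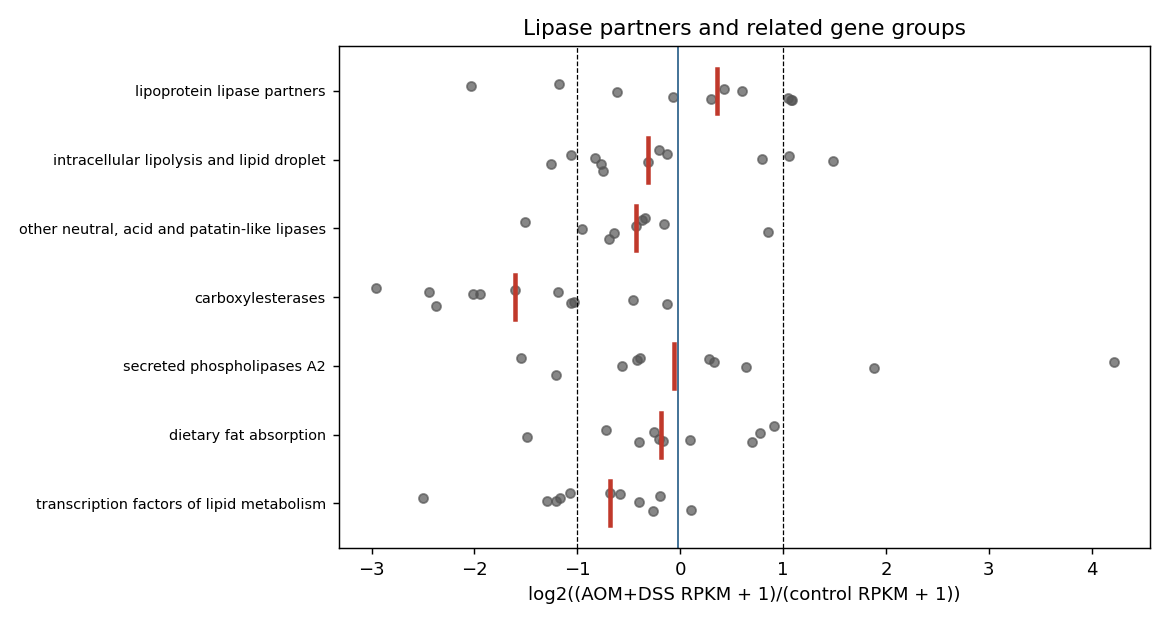
Log2 values of the members past the filter in 7 groups of lipid genes, 1 grey point a gene, with the group median as a red bar, the median of all genes past the filter as a blue line (-0.02) and dashed lines at 2-fold. Carboxylesterases lie furthest to the left (median -1.61), and 1 secreted phospholipase, Pla2g2a, stands apart on the right at 4.21.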

How the data were processed

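The authors deposited 1 table of RPKM values, per the file headers, with 1 column for each of 2 pooled libraries; the submitters' processing notes name the build GRCh37, a human assembly, while the symbols are mouse. Aligner, counting and annotation are not given in the sources used here. Read totals were recovered from microRNA and snoRNA genes, whose RefSeq lengths are known, by taking the commonest product of RPKM and length as 1 read; 144 of 200 such genes above 0 in the adenoma pool (72.0%) and 129 of 182 in the control pool (70.9%) then came out within 0.01 of a whole read. Reads per gene used the longest protein-coding GENCODE M21 transcript, so they and the 95% Clopper-Pearson intervals are approximate and cover counting error only. GRCm38 coordinates are not those of the authors' annotation.

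With 1 library per group there was no test and no p-value. Genes needed 1 RPKM in either pool, and log2 values used a pseudocount of 1. The length adjustment subtracted the running median over transcript length (20 bins, mRNA genes only), with lengths for 93.6% of genes past the filter. Members, lists and motifs were chosen with earlier results of these data known. The naming rule took from each list the most abundant gene, the 3 largest differences, genes past 2-fold in lists of at most 15 and, of markers, those at 0; it was not followed in full, since some genes it picks are covered only by sums and counts, and others named were picked for their role. Symbols Angptl8, Cela3a and Adgre1 were matched through RefSeq synonyms. Promoters were available for 7 members; protein sequences were not used here, and coding sequences were aligned globally with Biopython 1.88. The steps were checked on simulated reads. Python 3.11.15 with pandas 2.3.3 and scipy 1.17.1 was used.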

Additional observations from a re-analysis of the deposited data

How the results depend on the processing

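Pnliprp1 and Pnliprp2 stayed past 2-fold higher under all 12 alternatives, with log2 values of 5.24 to 7.63 and 4.95 to 7.26. Changes of filter, of fold threshold and to mRNA genes alone cannot alter the log2 value of a gene. Only the pseudocounts, the scalings and the length adjustment could move these values. Lipg stayed lower, at -1.88 to -0.99, and Lipe and Pnpla2 had negative values throughout; Clps, Lpl, Pnlip and Cel each changed sign under at least 1 alternative. The number of members at least 2-fold lower was 1, and became 0 with a pseudocount of 5, 2 at a 1.5-fold threshold and 0 at a 4-fold threshold. Genes at least 2-fold higher, 2316 as reported, numbered 1309 with a pseudocount of 5, 1208 at equal sums, 1346 among mRNA genes alone, 880 after length adjustment, 4245 at 1.5-fold and 333 at 4-fold. Genes at least 2-fold lower, 1809 as reported, numbered 2858 with a pseudocount of 0.1, 654 with 5, 3158 at equal sums, 4067 at 1.5-fold and 179 at 4-fold. The cause of these shifts was not tested beyond what each setting changes by construction. With the shortest protein-coding transcript as length the interval of Lipc widened to 2.04 to 74.9. The gastric list had no gene left at a filter of 5 RPKM. No paired analysis was possible because each group is 1 pool. Depth limits the values of Pnlip, Cel and Lipc, with under 100 reads in each pool, and the control values of Pnliprp1 (about 49 reads) and Pnliprp2 (about 51.1).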

Other observations

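Carboxylesterases, enzymes of the endoplasmic reticulum that hydrolyse lipid esters and drugs, were mostly lower among those past the filter. Of 19 genes of this list 11 passed the filter. Of these, 9 were at least 2-fold lower (against 11.0% of all genes) and none higher (against 14.0%). Through the control pool alone 3 of the 11 passed, with Ces1e and Ces2b among the lower ones, so the count follows partly from the filter. The median log2 value was -1.61 (-2.22 after length adjustment) against -0.02 over all genes. The median was -1.03 with a pseudocount of 5 and -0.46 over the whole list with no filter. Within 2-fold were Ces1b, at 0.560 RPKM in the adenoma pool and 1.15 in the control pool, and Ces1g, at 3.07 RPKM in the adenoma pool and 3.44 in the control pool. Ces1f was at 2.71 RPKM in the adenoma pool and 27.9 in the control pool, Ces2c at 11.3 RPKM in the adenoma pool and 65.7 in the control pool, and Ces1d at 5.75 RPKM in the adenoma pool and 34.1 in the control pool. These genes are close paralogs, and the split of reads among them is uncertain. Transcription factors of lipid metabolism had 5 of 11 at least 2-fold lower, against 11.0% of all genes, and none higher. Ppard, a fatty acid receptor, was at 11.8 RPKM in the adenoma pool and 71.6 in the control pool, Hnf4a, an epithelial nuclear receptor, at 61.1 RPKM in the adenoma pool and 151 in the control pool, and Ppara, another fatty acid receptor, at 0.393 RPKM in the adenoma pool and 2.12 in the control pool. Srebf2, a regulator of cholesterol synthesis, was at 28.1 RPKM in the adenoma pool and 60.0 in the control pool, and Foxo1, a forkhead factor, at 1.68 RPKM in the adenoma pool and 5.18 in the control pool. After length adjustment the log2 values of Srebf2 (-0.71) and Foxo1 (-0.61) are under the 2-fold line, which leaves 3 of 11. Colon epithelium markers were lower beside them, as given above, and their part was not tested.

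Secreted phospholipases A2 differed from each other. Of 11 genes 10 passed the filter, and their median log2 value was -0.06. Past 2-fold were 2 on the higher side (against 14.0% of all genes) and 2 on the lower (against 11.0%). After length adjustment 2 were higher and 3 lower. Pla2g2a, of which C57BL/6 mice are known to carry a disrupted allele, was at 221 RPKM in the adenoma pool, 20.1-fold above the control pool and close to the adenoma level of Pnliprp1 (222 RPKM). Pla2g12a was at 33.1 RPKM in the adenoma pool and 8.26 in the control pool. Pla2g3, at 1.29 RPKM in the adenoma pool and 5.72 in the control pool, and Pla2g5, at 13.5 RPKM in the adenoma pool and 32.4 in the control pool, were lower. Pla2g1b, the pancreatic phospholipase, was listed at 0 in both pools.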
